A study of Mus musculus with 6 samples.

Results

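Genes that mark the endothelial cells of blood vessels, the transporters they carry at the blood-brain barrier, and the mural cells around them were examined in mouse hippocampus. The 33 genes were chosen by name, and each gene was read from the probe set, a group of probes for one transcript, with the highest mean over all 6 arrays among those annotated to that gene alone. In this way 31 of the 33 were measured, of 18193 genes on the array: 19 endothelial, 6 barrier transporter and 6 mural genes. Ly6c1 was left out because its 1 annotated probe set also carries the name of Ly6c2, and Ly6a had no probe set under its name alone. None of the 31 lies in the duplicated segment, taken as the genes from Cops3 to Rnf112 (0 of 31). Expression was measured on Affymetrix arrays with 1 array per mouse, in 3 mice of genotype Dp(11)17/+ and 3 of genotype +/+. Dp(11)17/+ mice carry, on one chromosome 11, an extra copy of a segment, and the series title names them as a model of Potocki-Lupski syndrome. Both groups were labelled as males of the C57BL/6-Tyr c-Brd strain, aged 11 to 14 weeks, with no treatment named. The labels do not say whether mice shared a litter, so a shared litter or day and genotype cannot be told apart.

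Brain capillaries are lined by endothelial cells sealed by tight junctions, so that most nutrients and drugs cross only through transporters. Vascular endothelial growth factor, angiopoietins and Wnt ligands act on receptors of these cells and maintain the vessels and their barrier. Pericytes on capillaries and smooth muscle cells on arterioles form the mural layer, which regulates flow and supports the barrier. In RNA from whole tissue, more cells of a type and more RNA per cell cannot be told apart.

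Array medians lay between 3.74 and 3.79 on the log2 scale, on which a difference of 1 is a 2-fold change, and the number of arrays limits the precision. Some arrays stood apart in ways that bear on the values here. Dp(11)17/+ replicate 1 had a log2 value of 9.13 for Xist, the RNA of the inactive X chromosome of females, against 3.06 to 3.69 in the other 5 mice, so it goes against its label as a male. Dp(11)17/+ replicates 1 and 3 had means over the striatal markers that were 1.09 and 1.91 above the +/+ mean. Replicate 3 also had a thalamic and habenular mean 1.66 above it, and a CA1 pyramidal mean at -1.95 from it. The +/+ replicate 1 had a choroid plexus mean 1.93 above that of its group. Results are therefore given with and without single mice.

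As a group, vessel genes were mostly higher in Dp(11)17/+ hippocampus, by small amounts. Of the 31 genes 24 were higher, or 77.4%, against 41.7% of all measured genes, and the median log2 fold change was 0.20, against -0.02 over all genes. The interquartile range over the 31 genes was 0.05 to 0.29. Every Dp(11)17/+ mouse lay above every +/+ mouse for 8 genes, Tek, Kdr, Flt1, Itm2a, Sox17, Erg, Tjp1 and Abcb1a. This is 25.8% of the 31, against 2.7% of all genes. One gene, Vtn, had every Dp(11)17/+ mouse below every +/+ mouse, or 3.23%, against 5.59% of all genes.

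No single gene passed the test over all probe sets. Limma with Benjamini-Hochberg adjustment called none of the vessel genes (0 of 31; adjusted p between 0.994 and 0.998) and 0% of the 45037 probe sets. An unadjusted p under 0.05 was given by 1272 of the probe sets with limma and by 1553 with a plain equal-variance statistic. Among the 31 genes 7 had such a p and were higher, or 22.6%, against 1.15% of all genes. They were Tek, Flt1, Itm2a, Sox17, Erg, Abcb1a and Slc2a1. Vtn alone had such a p and was lower, or 3.23%, against 2.01% of all genes. The members were chosen with earlier results of these data known, so these counts describe the list and carry no test.

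**Figure D1:**
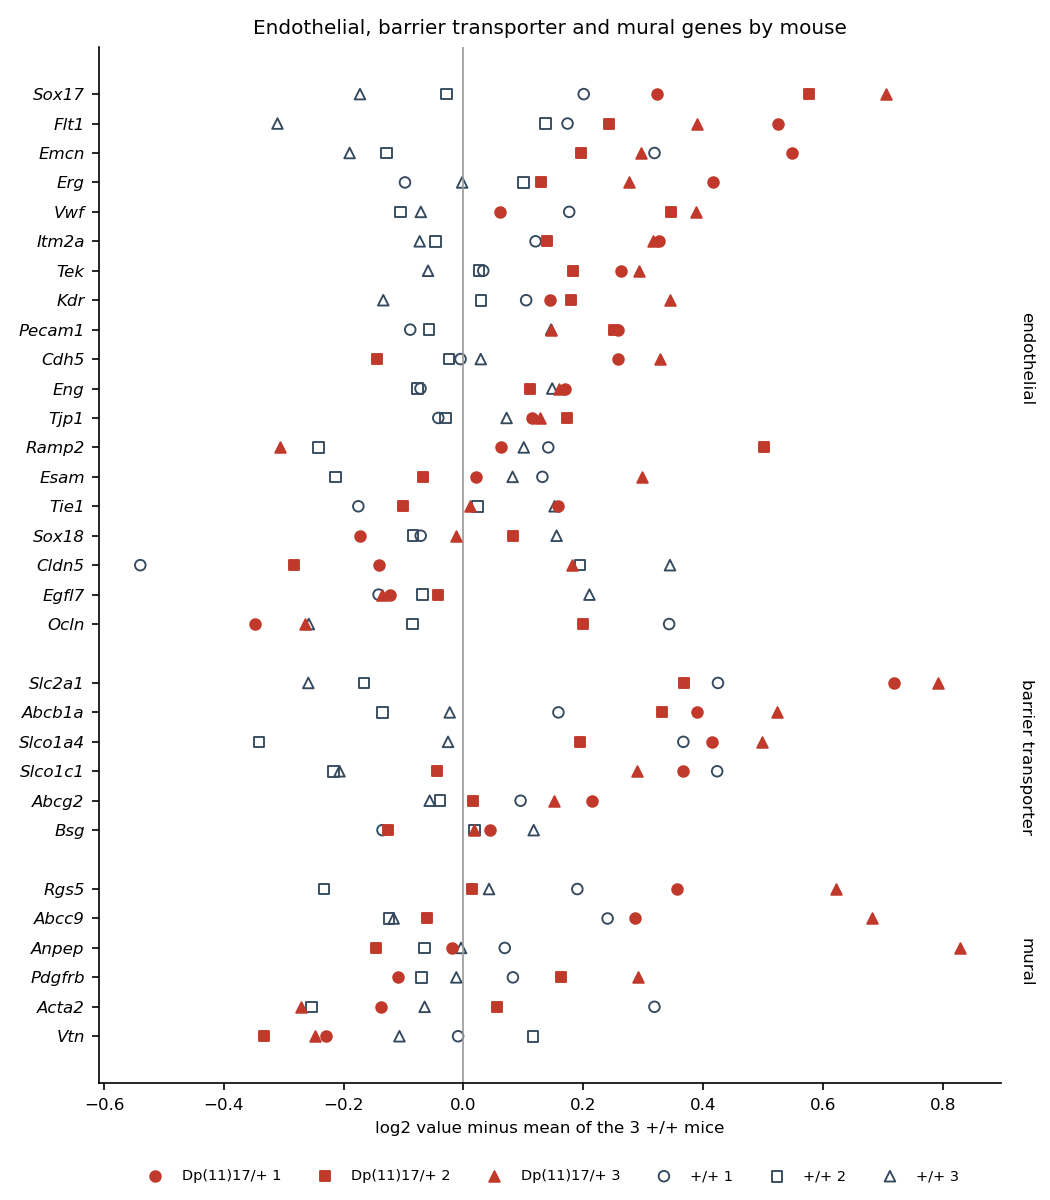
Log2 value of each of the 31 genes in each mouse, minus the mean of the 3 +/+ mice, with filled symbols for Dp(11)17/+ mice and open symbols for +/+ mice (circle replicate 1, square 2, triangle 3). Filled symbols lie to the right of all open ones for 8 genes, among them Sox17, Flt1 and Abcb1a, and to the left of all open ones for Vtn.

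The barrier transporters held the largest single difference. Slc2a1 encodes GLUT1, the glucose transporter of the barrier, which astrocytes also make in a smaller form. Its log2 values were 9.42, 9.07 and 9.49 in Dp(11)17/+ replicates 1, 2 and 3, against 9.12, 8.53 and 8.44 in +/+ replicates 1, 2 and 3. The groups overlapped, since +/+ replicate 1 lay above Dp(11)17/+ replicate 2. The log2 fold change was 0.63 (SE 0.20, 1.54-fold, 95% confidence interval 0.15 to 1.10, limma adjusted p = 0.994). Its other probe sets gave 0.64 and 0.65. On the dimmest of the 3 the groups did not overlap, with 8.07, 7.66 and 7.89 in Dp(11)17/+ mice and 7.59, 6.93 and 7.14 in +/+ mice. On the remaining probe set they overlapped, with 9.01, 8.53 and 9.06 in Dp(11)17/+ mice and 8.73, 8.04 and 7.90 in +/+ mice.

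Abcb1a encodes P-glycoprotein, the efflux pump that returns drugs to the blood. Its log2 values were 5.91, 5.85 and 6.04 in Dp(11)17/+ mice, against 5.68, 5.39 and 5.50 in +/+ mice. Every Dp(11)17/+ mouse was above every +/+ mouse. The log2 fold change was 0.41 (SE 0.10, 1.33-fold, 95% confidence interval 0.17 to 0.66, limma adjusted p = 0.994), and its dimmer probe set gave 0.31. On that dimmer probe set the groups overlapped, with Dp(11)17/+ replicate 2 at 3.77 and +/+ replicate 2 at 3.83. Abcg2, a second efflux pump, had 5.95, 5.75 and 5.89 in Dp(11)17/+ mice and 5.83, 5.70 and 5.68 in +/+ mice, a log2 fold change of 0.13 (95% confidence interval -0.09 to 0.34) with overlapping groups.

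The organic anion transporters of the barrier were lowest in +/+ replicates 2 and 3. Slco1a4 had log2 values of 8.05, 7.83 and 8.14 in Dp(11)17/+ mice, against 8.01, 7.30 and 7.61 in +/+ mice, a log2 fold change of 0.37 (SE 0.18, 95% confidence interval -0.06 to 0.80). Slco1c1, which carries thyroid hormone, had 8.58, 8.16 and 8.50 in Dp(11)17/+ mice, against 8.63, 7.99 and 8.002 in +/+ mice. This gave a log2 fold change of 0.20 (SE 0.20, 95% confidence interval -0.26 to 0.67, limma adjusted p = 0.994), and the mouse with the highest value was +/+ replicate 1. Bsg, the basigin gene, whose product brings monocarboxylate transporters to the membrane, had 10.21, 10.04 and 10.19 in Dp(11)17/+ mice and 10.03, 10.19 and 10.29 in +/+ mice. Its log2 fold change of -0.02 (95% confidence interval -0.25 to 0.21) was within the spread of each group.

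Over the 6 transporters, 5 were higher, and the median log2 fold change was 0.29. It was 0.45 without +/+ replicate 1 and 0.15 without +/+ replicate 2. Their mean was 7.95 ± 0.14 in Dp(11)17/+ mice and 7.66 ± 0.20 in +/+ mice (SD, n = 3 each). By mouse it stood at 0.36, 0.12 and 0.38 above the +/+ mean in Dp(11)17/+ replicates 1, 2 and 3, against 0.22, -0.15 and -0.08 in +/+ replicates 1, 2 and 3. The groups overlapped, with +/+ replicate 1 above Dp(11)17/+ replicate 2. Choroid plexus markers, 12 measured of 14, were low in the same 3 mice, Dp(11)17/+ replicate 2 and +/+ replicates 2 and 3. They stood at 0.76, -0.81 and 1.12 in Dp(11)17/+ mice and 1.93, -1.003 and -0.93 in +/+ mice. Ttr, the transthyretin gene of choroid plexus, had log2 values of 12.99, 10.84 and 12.96 in Dp(11)17/+ mice and 13.07, 8.54 and 9.89 in +/+ mice. The part of choroid plexus in the transporter values was not tested beyond a fit that holds the choroid plexus mean as a covariate. That fit, added after the data were seen, gave a median of 0.22 for the transporters.

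**Figure D2:**
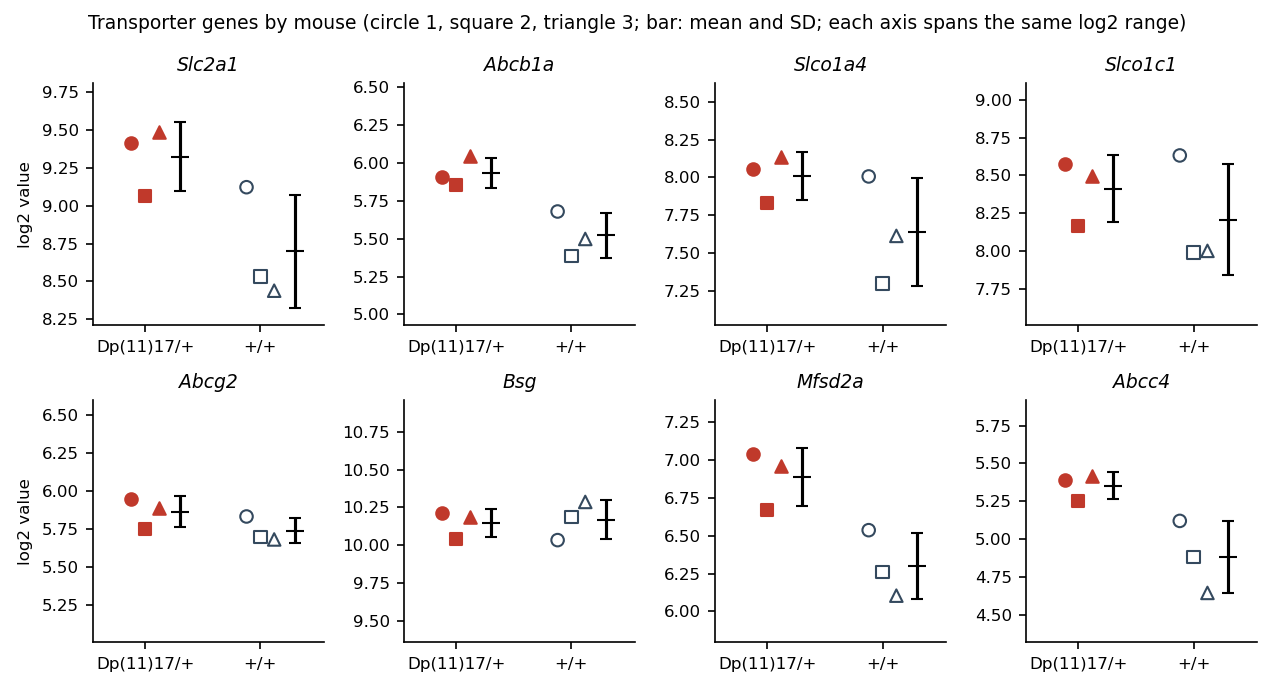
Log2 values of the 6 barrier transporter genes and of Mfsd2a and Abcc4, further transport genes of the vessel wall, in Dp(11)17/+ mice (left, filled) and +/+ mice (right, open), with the mean and SD of each group (n = 3). Abcb1a, Mfsd2a and Abcc4 have all filled symbols above all open ones, while +/+ replicate 1 (open circle) is the highest of its group for 5 of the 6 transporters and the lowest for Bsg.

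Among the receptors of endothelial growth signals, most were higher in Dp(11)17/+ mice. Tek, or Tie2, is the receptor of the angiopoietins. It had log2 values of 5.40, 5.32 and 5.43 in Dp(11)17/+ mice, against 5.17, 5.16 and 5.08 in +/+ mice. The groups did not overlap and each was narrow, with a log2 fold change of 0.25 (SE 0.08, 1.19-fold, 95% confidence interval 0.06 to 0.43, limma adjusted p = 0.994). Tie1, its partner receptor, had 3.75, 3.49 and 3.60 in Dp(11)17/+ mice and 3.42, 3.62 and 3.74 in +/+ mice, a log2 fold change of 0.02 (95% confidence interval -0.25 to 0.29). Its probe set lay near the array medians.

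Kdr and Flt1 are receptors of vascular endothelial growth factor, Kdr the main signalling one and Flt1 largely a sink for the ligand. Kdr had log2 values of 5.36, 5.39 and 5.56 in Dp(11)17/+ mice, against 5.32, 5.24 and 5.08 in +/+ mice. Flt1 had 6.34, 6.06 and 6.20 in Dp(11)17/+ mice, against 5.99, 5.95 and 5.50 in +/+ mice. On the probe sets used, neither gene had overlapping groups. The log2 fold change of Kdr was 0.22 (SE 0.10, 95% confidence interval -0.01 to 0.46, limma adjusted p = 0.994), with Dp(11)17/+ replicate 1 only just above +/+ replicate 1. For Flt1 it was 0.39 (SE 0.15, 95% confidence interval 0.03 to 0.74, limma adjusted p = 0.994), and its 4 probe sets gave between 0.08 and 0.39. The groups overlapped on all of its other probe sets. On the brightest of these, +/+ replicate 1 was the highest of all mice at 6.02, against 6.01, 5.84 and 5.86 in Dp(11)17/+ mice. Eng, endoglin, a co-receptor of transforming growth factor beta, had 6.01, 5.96 and 6.00 in Dp(11)17/+ mice and 5.77, 5.77 and 5.99 in +/+ mice. Its log2 fold change was 0.15 (95% confidence interval -0.07 to 0.36), and +/+ replicate 3 lay among the Dp(11)17/+ mice. Ramp2, part of the adrenomedullin receptor, varied more within the groups than between them, with 7.53, 7.96 and 7.16 in Dp(11)17/+ mice, 7.60, 7.22 and 7.56 in +/+ mice and a log2 fold change of 0.09.

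The adhesion and surface genes differed little one by one. Pecam1 and Cdh5 encode the junctional adhesion molecules by which endothelium is usually recognised, CD31 and VE-cadherin. Pecam1 had log2 values of 3.75, 3.74 and 3.64 in Dp(11)17/+ mice, against 3.40, 3.43 and 3.64 in +/+ mice, a log2 fold change of 0.22 (SE 0.09, 95% confidence interval -0.0026 to 0.44, limma adjusted p = 0.994). Cdh5 had 4.14, 3.74 and 4.21 in Dp(11)17/+ mice, against 3.88, 3.86 and 3.91 in +/+ mice, a log2 fold change of 0.15 (SE 0.13, 95% confidence interval -0.16 to 0.46, limma adjusted p = 0.994). In Cdh5, Dp(11)17/+ replicate 2 was below all +/+ mice and the others above them. Pecam1, Cdh5 and Tie1 all had means between 3.60 and 3.95, close to the array medians, so these defining markers were read on dim probe sets, while Cldn5, Slc2a1 and Itm2a had means of 7.56, 9.01 and 9.98.

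Itm2a, an X-linked gene for a membrane protein that is abundant in brain endothelium, had log2 values of 10.17, 9.99 and 10.16 in Dp(11)17/+ mice, against 9.97, 9.80 and 9.77 in +/+ mice. The groups did not overlap, and the log2 fold change was 0.26 (SE 0.10, 95% confidence interval 0.04 to 0.49, limma adjusted p = 0.994). Without Dp(11)17/+ replicate 1, the mouse with high Xist, it was 0.23. Its second probe set gave 0.29, with 8.48, 8.37 and 8.52 in Dp(11)17/+ mice and 8.29, 8.08 and 8.14 in +/+ mice, again without overlap. Emcn, the sialoglycoprotein endomucin, had a log2 fold change of 0.35 (SE 0.16), with 4.62, 4.27 and 4.37 in Dp(11)17/+ mice and 4.39, 3.94 and 3.88 in +/+ mice. Vwf, the clotting protein of von Willebrand, had one of 0.26 (SE 0.12), with 4.07, 4.36 and 4.40 in Dp(11)17/+ mice and 4.19, 3.91 and 3.94 in +/+ mice. In both genes +/+ replicate 1 lay among the Dp(11)17/+ mice. Esam, an adhesion molecule of tight junctions, had 6.02, 5.93 and 6.29 in Dp(11)17/+ mice and 6.13, 5.78 and 6.08 in +/+ mice, a log2 fold change of 0.08 (95% confidence interval -0.24 to 0.40). Egfl7, a protein that endothelium secretes, had 6.99, 7.08 and 6.98 in Dp(11)17/+ mice and 6.98, 7.05 and 7.33 in +/+ mice, a log2 fold change of -0.10 (95% confidence interval -0.36 to 0.16). Both overlapped.

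The 3 transcription factors of endothelial identity did not share one direction. Sox17 had log2 values of 5.47, 5.73 and 5.86 in Dp(11)17/+ mice, against 5.35, 5.12 and 4.98 in +/+ mice. Without overlap between the groups, its log2 fold change was 0.53 (SE 0.14, 1.45-fold, 95% confidence interval 0.21 to 0.86, limma adjusted p = 0.994). The name of its probe set ends in x_at, which Affymetrix gives where some probes may bind other transcripts, and its second probe set gave 0.16. On the second probe set the groups overlapped, with 4.66, 4.23 and 4.49 in Dp(11)17/+ mice and 4.26, 4.08 and 4.57 in +/+ mice. Erg, a factor of the ETS family, had 4.28, 3.99 and 4.14 in Dp(11)17/+ mice, against 3.76, 3.96 and 3.86 in +/+ mice, a log2 fold change of 0.27 (SE 0.10, 95% confidence interval 0.03 to 0.52, limma adjusted p = 0.994). Dp(11)17/+ replicate 2 was only just above +/+ replicate 2, and a dimmer probe set of Erg gave -0.05. Sox18, a close relative of Sox17, had 5.34, 5.60 and 5.50 in Dp(11)17/+ mice and 5.44, 5.43 and 5.67 in +/+ mice, a log2 fold change of -0.03 (95% confidence interval -0.29 to 0.22).

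The tight junction genes showed no common direction. Cldn5, the claudin that seals the barrier to small molecules, had log2 values of 7.46, 7.32 and 7.78 in Dp(11)17/+ mice, against 7.06, 7.79 and 7.94 in +/+ mice. Its log2 fold change was -0.08 (SE 0.24, 95% confidence interval -0.65 to 0.48, limma adjusted p = 0.994). The +/+ mice spanned 0.88 on the log2 scale, the widest range of any of the 31 genes in that group, with replicate 1 the lowest. Ocln, occludin, had 5.30, 5.85 and 5.39 in Dp(11)17/+ mice and 6.00, 5.57 and 5.39 in +/+ mice, a log2 fold change of -0.14 (95% confidence interval -0.61 to 0.33). Tjp1, the scaffold ZO-1 beneath the junction, had 8.19, 8.24 and 8.20 in Dp(11)17/+ mice, against 8.03, 8.04 and 8.14 in +/+ mice. Its groups did not overlap, with a small log2 fold change of 0.14 (SE 0.08, 95% confidence interval -0.04 to 0.32, limma adjusted p = 0.994).

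Over the 19 endothelial genes, 15 were higher, and the median log2 fold change was 0.15. Among them 7 had every Dp(11)17/+ mouse above every +/+ mouse, or 36.8%, against 2.7% of all genes. Their mean was 5.81 ± 0.02 in Dp(11)17/+ mice and 5.65 ± 0.03 in +/+ mice (SD, n = 3 each). By mouse it stood at 0.15, 0.14 and 0.19 above the +/+ mean in Dp(11)17/+ replicates 1, 2 and 3, against 0.03, -0.04 and 0.01 in +/+ mice, so the groups did not overlap. Within each group this mean was nearly level, more so than that of the transporters. It averages 19 genes, of which 7 had a mean log2 value of 6 or more, against 4 of the 6 transporters. The part of gene number and brightness in this was not tested.

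**Figure D3:**
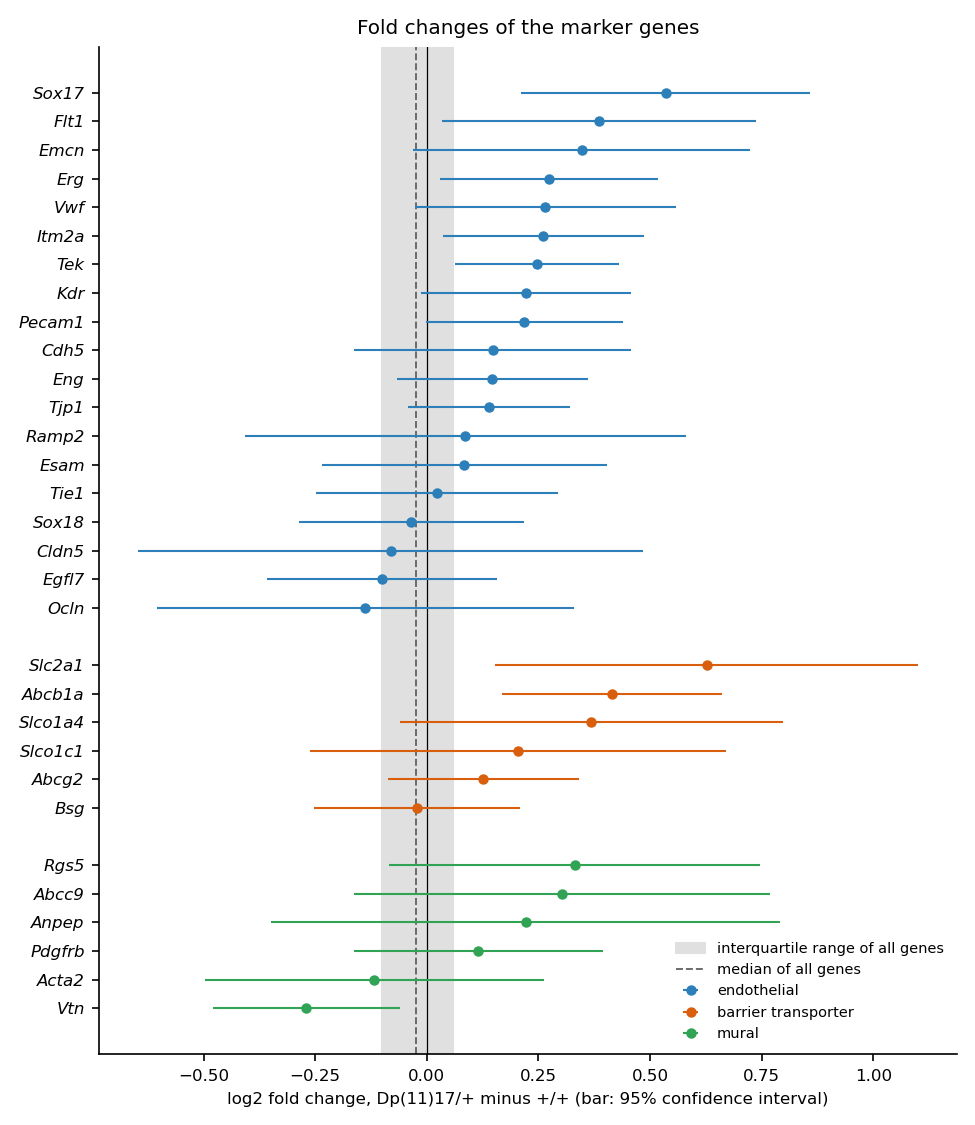
Log2 fold change of each gene, Dp(11)17/+ minus +/+, with its 95% confidence interval from limma (n = 3 mice in each group). The grey band is the interquartile range of all 18193 genes and the dashed line their median of -0.02. Of the 31 intervals, those of Sox17, Flt1, Erg, Itm2a, Tek, Slc2a1 and Abcb1a lie above 0 and that of Vtn below it.

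The mural genes were mixed. Rgs5, a regulator of G protein signalling that marks pericytes, had log2 values of 9.27, 8.93 and 9.53 in Dp(11)17/+ mice, against 9.10, 8.68 and 8.96 in +/+ mice. The groups overlapped, and the log2 fold change was 0.33 (SE 0.18, 95% confidence interval -0.08 to 0.75, limma adjusted p = 0.994). Pdgfrb, the receptor by which endothelial platelet-derived growth factor recruits pericytes, had 6.18, 6.45 and 6.58 in Dp(11)17/+ mice, against 6.37, 6.22 and 6.28 in +/+ mice. This gave a log2 fold change of 0.12 (SE 0.12, 95% confidence interval -0.16 to 0.39, limma adjusted p = 0.994), with Dp(11)17/+ replicate 1 below all +/+ mice. Abcc9, the sulfonylurea receptor subunit of the potassium channel of pericytes, had 5.001, 4.65 and 5.40 in Dp(11)17/+ mice and 4.96, 4.59 and 4.60 in +/+ mice, a log2 fold change of 0.30 (95% confidence interval -0.16 to 0.77). Without Dp(11)17/+ replicate 3 the log2 fold changes were 0.19 for Rgs5, 0.03 for Pdgfrb and 0.11 for Abcc9. Without Dp(11)17/+ replicate 1 that of Pdgfrb was 0.23, and without Dp(11)17/+ replicate 2 that of Abcc9 was 0.48.

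Anpep, the aminopeptidase CD13, was high in Dp(11)17/+ replicate 3 alone. It had log2 values of 3.53, 3.41 and 4.38 in Dp(11)17/+ mice, against 3.62, 3.49 and 3.55 in +/+ mice. Its log2 fold change of 0.22 (95% confidence interval -0.35 to 0.79) was -0.08 without Dp(11)17/+ replicate 3, and its mean of 3.66 lay near the array medians. Acta2, the actin of smooth muscle cells, had 6.08, 6.27 and 5.94 in Dp(11)17/+ mice, against 6.53, 5.96 and 6.15 in +/+ mice. This gave a log2 fold change of -0.12 (SE 0.16, 95% confidence interval -0.50 to 0.26, limma adjusted p = 0.994), and its 3 probe sets gave between -0.12 and 0.05.

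Vtn encodes vitronectin, an adhesion protein of blood and matrix that brain pericytes make. It was the 1 gene of the 31 with every Dp(11)17/+ mouse below every +/+ mouse, with log2 values of 7.87, 7.77 and 7.85 in Dp(11)17/+ mice, against 8.09, 8.21 and 7.99 in +/+ mice. The log2 fold change was -0.27 (SE 0.09, 0.829-fold, 95% confidence interval -0.48 to -0.06, limma adjusted p = 0.994). Its second probe set gave -0.29, with overlapping values of 7.34, 6.98 and 7.04 in Dp(11)17/+ mice and 7.31, 7.58 and 7.33 in +/+ mice. Vtn lies on chromosome 11, as do Pecam1 and Ramp2, outside the segment.

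Over the 6 mural genes, 4 were higher, and the median log2 fold change was 0.17. Their mean was 6.39 ± 0.19 in Dp(11)17/+ mice and 6.30 ± 0.13 in +/+ mice (SD, n = 3 each). By mouse it stood at 0.02, -0.05 and 0.32 from the +/+ mean in Dp(11)17/+ replicates 1, 2 and 3, against 0.15, -0.11 and -0.04 in +/+ mice. The groups overlapped, with Dp(11)17/+ replicate 3 the highest. Without that mouse the median was -0.01. Oligodendrocyte markers, 11 measured of 13, were highest in the same mouse, at -0.07, 0.19 and 0.54 in Dp(11)17/+ mice and 0.32, -0.20 and -0.13 in +/+ mice, and their part in the mural values was not tested.

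**Figure D4:**
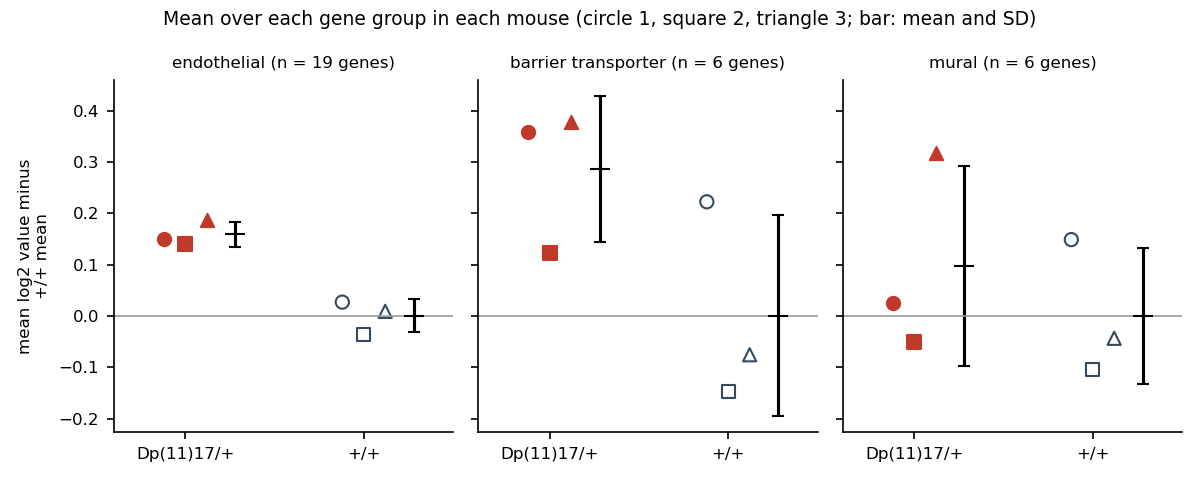
Mean log2 value over the endothelial (19), barrier transporter (6) and mural (6) genes in each mouse, minus the +/+ mean, with Dp(11)17/+ mice left and +/+ mice right and the mean and SD of each group (n = 3). The endothelial means of the Dp(11)17/+ mice (0.14 to 0.19) lie above those of all +/+ mice (-0.04 to 0.03), while the transporter and mural means overlap.

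Several probe sets of a gene mostly gave the same sign. The 31 genes had 55 probe sets, of which 42 were higher in Dp(11)17/+ mice. Of the 15 genes with more than 1 probe set, 12 had all of them on the same side. The exceptions were Egfl7, Erg and Acta2. A shared sign did not mean that the groups stayed apart on each probe set. Flt1, Sox17, Erg, Abcb1a and Vtn had groups apart on the probe set used and overlapping on their others. The groups of Itm2a did not overlap on either of its probe sets.

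The mice contributed unequally. Dp(11)17/+ replicate 3 held the highest value of the 6 mice in 13 of the 31 genes, Dp(11)17/+ replicate 1 in 8 and Dp(11)17/+ replicate 2 in 2, against 3, 1 and 4 for +/+ replicates 1, 2 and 3. The same count was not made over all genes, so whether it is particular to the vessel genes was not tested. Without Dp(11)17/+ replicate 3, 22 of the 31 genes were higher, against 42.3% of all genes. Of the 31, 2 had an unadjusted p under 0.05 and were higher, against 0.726% of all genes. Without Dp(11)17/+ replicate 1 these counts were 24 and 4, against 43.2% and 1.13% of all genes. Without Dp(11)17/+ replicate 2 they were 25 and 10, against 42.1% and 3.46%. Without +/+ replicate 1, 11 genes had such a p and were higher, against 2.14% of all genes. Without +/+ replicate 2 it was 5, against 1.19%, and without +/+ replicate 3 also 5, against 0.94%. Dp(11)17/+ replicate 2, the duplication mouse with no excess of striatal markers, lay above the +/+ mean in 21 of the 31 genes, with a median difference of 0.13 on the log2 scale. Over all measured genes it lay above that mean in 45.1%. The +/+ replicate 1 also lay above the +/+ mean, of which it is a part, in 20 of the 31 genes. The mean over the 31 genes stood 0.10 above the +/+ mean in Dp(11)17/+ replicate 2 and 0.088 above it in +/+ replicate 1. The median log2 fold change over the 31 genes was between 0.14 and 0.22 with each mouse left out, lowest without +/+ replicate 2.

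Single genes differed in how far they rested on 1 mouse. With each mouse left out in turn, Sox17 and Abcb1a kept an unadjusted limma p under 0.05 in 6 of 6 fits, Tek in 5 and Vtn in 4. Flt1 kept it in 3 fits, and Slc2a1, Itm2a and Erg each in 2. The log2 fold change of Slc2a1 was between 0.50 and 0.84 in these fits, that of Abcb1a between 0.35 and 0.49, and that of Sox17 between 0.45 and 0.64. The limma adjusted p stayed above the threshold for all 31 genes in each of these fits.

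Markers of other cells are given for the same mice. Neuronal markers common to the tissue, 12 of 12 measured, gave means between 9.72 and 10.03 in Dp(11)17/+ mice and 9.76 and 9.98 in +/+ mice. Astrocyte markers, 13 measured of 14, were higher in 11, with means of 8.69 to 8.78 in Dp(11)17/+ mice and 8.58 to 8.66 in +/+ mice. Their Dp(11)17/+ means lay above all +/+ means, as the endothelial means did. Oligodendrocyte markers were higher in 10 of 11, and their means overlapped, at 8.87 to 9.48 in Dp(11)17/+ mice and 8.74 to 9.26 in +/+ mice. Oligodendrocyte precursor markers, 8 measured of 9, were higher in all 8, where 41.7% of all genes were higher. Of the 8, 3 had every Dp(11)17/+ mouse above every +/+ mouse, or 37.5%, against 2.7% of all genes. The means of this precursor list overlapped as well, at 6.91 to 7.24 in Dp(11)17/+ mice and 6.80 to 7.04 in +/+ mice. Dp(11)17/+ replicate 2 stood 0.02 above the +/+ mean, and +/+ replicate 2 stood 0.15 above it. The median log2 fold changes were 0.18 for astrocyte, 0.23 for oligodendrocyte and 0.25 for oligodendrocyte precursor markers, beside 0.20 for the 31 vessel genes. With the astrocyte mean as a covariate, 1 of the 31 genes had an unadjusted limma p under 0.05 and was higher, in place of 7. In that fit 27 genes were higher, and the medians were 0.24 over all 31 and 0.22 endothelial. Because the astrocyte means did not overlap between the groups, that fit cannot tell astrocytes and genotype apart. With the striatal mean as a covariate 3 had such a p and were higher, and the medians were 0.12 over all 31 and 0.17 endothelial. With the choroid plexus mean as a covariate 10 had such a p and were higher, and both of these medians were 0.15. Shares over all genes were not computed for the covariate fits. Red cell markers, 5 measured of 10, gave 3.56 to 3.70 in Dp(11)17/+ mice and 3.70 to 3.73 in +/+ mice. Perivascular macrophage markers, 8 of 8 measured, gave 3.70 to 3.73 in Dp(11)17/+ mice and 3.64 to 3.83 in +/+ mice, near the array medians in both groups. Beyond the covariate fits, added after the data were seen, the part of other cells in the vessel values was not tested.

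**Figure D5:**
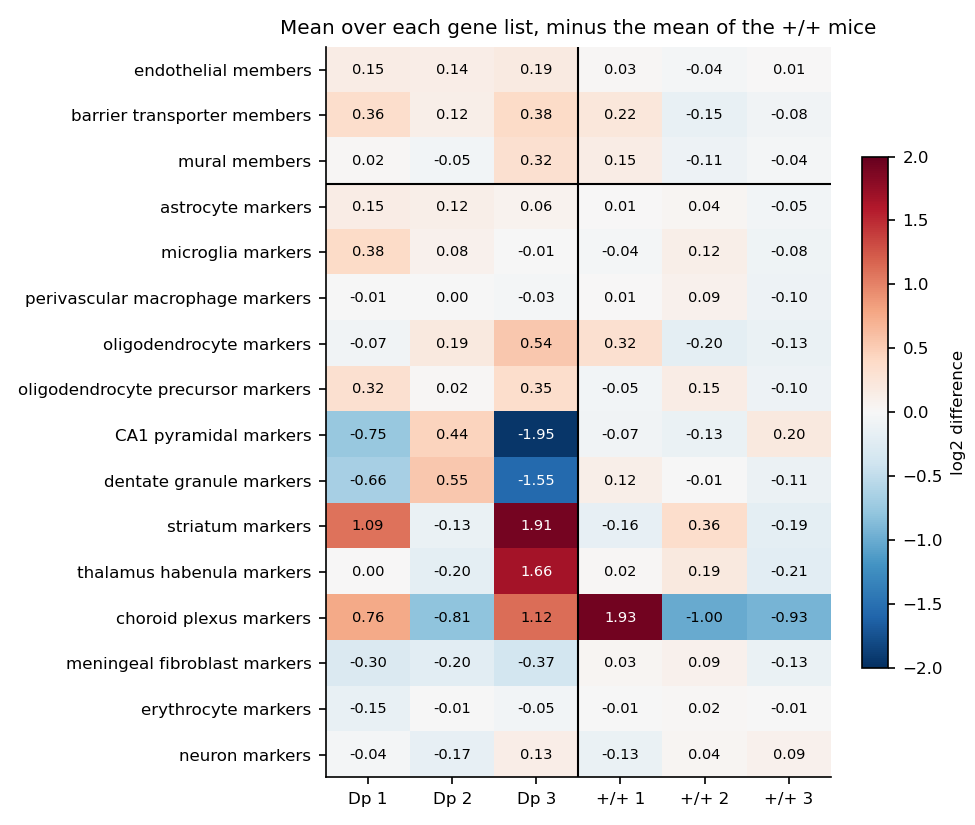
Mean over each gene list in each mouse, minus the mean of the 3 +/+ mice, on the log2 scale (red higher, blue lower), with the vessel genes in the top 3 rows and markers of other cells below. The vessel rows stay between -0.15 and 0.38, while choroid plexus, striatal and CA1 rows reach 1.93, 1.91 and -1.95 in single mice.

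Further genes of the vessel wall, from 6 lists of 122 genes in all, were measured for 118. Of these 74 were higher and 44 lower, and the median log2 fold change was 0.05. An unadjusted p under 0.05 was given to 9 that were higher, or 7.63%, against 1.15% of all genes, and to 1 that was lower, or 0.847%, against 2.01% of all genes. Limma called 0 of them after adjustment (lowest adjusted p 0.994). Of all measured genes 41.7% were higher, and the median was -0.02.

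Wnt ligands from neural cells act on endothelial receptors to induce the barrier. In the list of the Wnt and barrier programme 12 of 20 measured genes were higher, and the median log2 fold change was 0.06. Mfsd2a, the transporter that carries docosahexaenoic acid into the brain, had log2 values of 7.04, 6.67 and 6.96 in Dp(11)17/+ mice, against 6.54, 6.26 and 6.10 in +/+ mice. The groups did not overlap, and its log2 fold change was 0.59 (SE 0.14, 95% confidence interval 0.25 to 0.93, limma adjusted p = 0.994). Tnfrsf19 had a log2 fold change of 0.15, and Plvap, a protein of fenestrated endothelium, of -0.21.

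In the list of growth factor, angiopoietin and Notch signalling, 14 of 28 genes were higher, and the median was 0.01. Ptprb, the phosphatase that dampens Tie2, had log2 values of 6.23, 6.45 and 6.41 in Dp(11)17/+ mice, against 6.06, 5.81 and 6.02 in +/+ mice. Robo4, an endothelial guidance receptor, had 4.11, 4.01 and 3.90 in Dp(11)17/+ mice, against 3.68, 3.77 and 3.64 in +/+ mice. Both genes had groups that did not overlap, with log2 fold changes of 0.40 (SE 0.10) for Ptprb and 0.32 (SE 0.09) for Robo4. The mean of Robo4, 3.85, lay near the array medians. Nrp1, a co-receptor that neurons also carry, had one of -0.73 (SE 0.37), with 7.31, 8.35 and 6.74 in Dp(11)17/+ mice and 8.22, 7.94 and 8.44 in +/+ mice. The low mice were Dp(11)17/+ replicates 1 and 3, in which CA1 markers were low as well, and the part of CA1 in this value was not tested.

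Other transport genes of the barrier were higher in 13 of 18, and the median log2 fold change was 0.08. Abcc4, an efflux pump for organic anions, had log2 values of 5.39, 5.25 and 5.42 in Dp(11)17/+ mice, against 5.12, 4.88 and 4.64 in +/+ mice, a log2 fold change of 0.47 (SE 0.13). Slc19a3, the thiamine transporter, had 5.09, 4.89 and 4.94 in Dp(11)17/+ mice, against 4.74, 4.70 and 4.58 in +/+ mice, a log2 fold change of 0.30 (SE 0.09). On the probe sets used, neither gene had overlapping groups, but the second probe set of Slc19a3 gave -0.052. Igf1r had a log2 fold change of 0.38 (SE 0.13). Tfrc, the transferrin receptor, was named after its values were seen, as the 1 gene of these lists with an unadjusted p under 0.05 that was lower, and had a log2 fold change of -0.30 (SE 0.13). It had 8.20, 8.44 and 8.67 in Dp(11)17/+ mice and 8.69, 8.73 and 8.81 in +/+ mice without overlap, and its second probe set gave 0.07.

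Of the other junction and adhesion genes 14 of 19 were higher, and the median was 0.09. That median was 0.0099 without Dp(11)17/+ replicate 3 and 0.04 without +/+ replicate 2. Icam2, Vcam1 and Jam2 had log2 fold changes of -0.22, 0.16 and 0.15, and the second probe set of Jam2 gave -0.036. The other mural genes had no common direction, at 9 of 19 higher and a median of -0.01. Notch3, the Notch receptor of mural cells, had a log2 fold change of 0.40 (SE 0.13), with 5.05, 4.93 and 5.22 in Dp(11)17/+ mice and 4.83, 4.74 and 4.44 in +/+ mice and no overlap. The second probe set of Notch3 gave -0.018. Foxd1 and Tbx18, transcription factors of mural lineages, had log2 fold changes of -0.19 and -0.27. Their means of 3.17 and 3.41 lay below the array medians, and the second probe set of Tbx18 gave 0.016. Genes of the vessel basement membrane were higher in 12 of 15, and the median was 0.09. Col4a1 and Col4a2, the collagen IV chains transcribed from a shared promoter region, had log2 fold changes of 0.25 (SE 0.10) and 0.24 (SE 0.12), and Sparc, a matrix protein that astrocytes also make, of 0.47 (SE 0.18).

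Promoter windows from RefSeq, each with 250 bases before and 50 after the gene's start on GRCm38.p6, were matched by symbol for 22 of the 31 genes. Bsg, Cdh5, Esam, Pdgfrb, Pecam1, Ramp2, Sox17, Sox18 and Vwf were not matched. The 3 motifs below, of factors that act in endothelium, were counted on both strands in the first window of each gene: GGAAG, the core bound by ETS factors such as Erg; ACAAT, the core bound by Sox factors such as Sox17; and ACGTG, the core of hypoxia response elements. GGAAG was present in 15 of 22 windows, or 68.2%, against 71.1% of 27025 genes. ACAAT was present in 5, or 22.7%, against 31.6%, and ACGTG in 3, or 13.6%, against 19.7%. All 3 shares were below those of all genes, and a match is a description of the letters, not a site. Windows of the glucose transporter, the drug efflux pump and the receptors Flt1 and Tek are shown because their genes were among those higher in Dp(11)17/+ mice. They are printed from 5′ to 3′ on the strand of the gene with the motifs, on either strand, in capitals.
Slc2a1, chr4:119108495-119108794, plus strand: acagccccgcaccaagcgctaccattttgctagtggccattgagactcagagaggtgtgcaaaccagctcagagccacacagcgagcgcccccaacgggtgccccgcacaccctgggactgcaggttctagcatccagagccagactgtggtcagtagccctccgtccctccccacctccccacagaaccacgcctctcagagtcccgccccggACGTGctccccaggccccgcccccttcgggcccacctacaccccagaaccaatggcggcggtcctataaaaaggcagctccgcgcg
Abcb1a, chr5:8566841-8567140, plus strand: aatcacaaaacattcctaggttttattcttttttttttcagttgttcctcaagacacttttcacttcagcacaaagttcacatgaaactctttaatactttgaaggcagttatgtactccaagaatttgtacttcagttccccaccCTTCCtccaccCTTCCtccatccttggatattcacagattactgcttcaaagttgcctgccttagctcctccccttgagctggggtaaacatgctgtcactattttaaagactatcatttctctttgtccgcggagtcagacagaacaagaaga
Flt1, chr5:147725962-147726261, minus strand: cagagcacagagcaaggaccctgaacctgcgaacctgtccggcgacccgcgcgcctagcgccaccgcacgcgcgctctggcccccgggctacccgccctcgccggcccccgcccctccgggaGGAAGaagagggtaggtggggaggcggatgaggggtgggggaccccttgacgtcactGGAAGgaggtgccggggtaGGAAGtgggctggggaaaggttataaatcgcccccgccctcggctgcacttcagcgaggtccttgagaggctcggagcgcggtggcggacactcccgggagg
Tek, chr4:94739039-94739338, plus strand: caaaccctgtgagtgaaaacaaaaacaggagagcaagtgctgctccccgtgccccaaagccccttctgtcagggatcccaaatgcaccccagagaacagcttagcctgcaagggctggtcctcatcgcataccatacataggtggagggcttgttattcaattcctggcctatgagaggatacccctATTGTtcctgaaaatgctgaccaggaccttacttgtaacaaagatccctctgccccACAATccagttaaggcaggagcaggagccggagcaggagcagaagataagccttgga
The window of Slc2a1 holds 1 hypoxia core and no ETS or Sox core, that of Abcb1a 2 ETS cores, that of Flt1 3 ETS cores and that of Tek 2 Sox cores.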

How the data were processed

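Hippocampal RNA from 6 mice was hybridized to Affymetrix arrays in 1 colour. The authors deposited log2 values, 1 per probe set, made with RMA per the submitters' processing notes, which corrects background, normalizes quantiles across arrays and summarises probes, with the version not given in the sources used here. Per the labels, extraction was described for organs other than hippocampus and labelling for pools, whereas each record names hippocampus and 1 individual. The records were followed.

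The values were used as deposited, without 64 control probe sets, which left 45037. A single gene symbol was annotated to 34945 of them, several to 932 and none to 9160. Each gene was read from its probe set of the highest mean. Limma 3.58.1 in R 4.3.3 (lmFit and eBayes, no covariate, two-sided) compared Dp(11)17/+ with +/+, with Benjamini-Hochberg adjustment over all probe sets and a threshold of 0.05. The procedure was tested on simulated data. The changes planted there were larger than those of the vessel genes and only in brighter probe sets. That test therefore does not show whether changes as small as these are found. Nothing says whether the mice came from separate litters, so p-values measure only the spread between these mice. Groups came from the genotype label, and replicates were numbered in accession order.

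The members, gene lists and tests were chosen with earlier results of these data known. All measured members were named, and from each further list the 3 genes with the smallest unadjusted p. Alternatives were other scalings, filters at mean log2 values of 5 and 6, other variance models, other probe set choices, each mouse left out, Dp(11)17/+ replicate 2 alone, and, added after the data were seen, marker means as covariates.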

Additional observations from a re-analysis of the deposited data

How the results depend on the processing

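None of the 59 genes reported passed limma's adjusted p in those of the 21 other settings that gave it one, and 17 of the 31 vessel genes kept their sign in the settings that measured them. The brightness filters left out dim genes, some of these 17 among them, and Dp(11)17/+ replicate 2 alone gave no p. The values below are log2 fold changes unless a count is named, and the cause of each shift was not tested except where the setting itself leaves genes or mice out. Array weights, and an intensity trend with robust prior, each called 1 probe set of all tested. Only 15 of the 31 genes had a mean log2 value of 6 or more, and among them 10 were higher and 3 had an unadjusted p under 0.05 and were higher, against 40.9% and 1.45% of the 7104 genes at that filter. The medians at that filter were 0.12 over all vessel genes, 0.086 endothelial and -0.00090 mural, and at a mean of 5 or more the mural median was -0.00090 and that of the other mural genes 0.046. The second brightest probe set gave medians of 0.090 over all and 0.086 endothelial, 4 genes with such a p that were higher and 0 that were lower, and turned Erg (-0.050), Slc19a3 (-0.052), Tfrc (0.071), Jam2 (-0.036), Notch3 (-0.018) and Tbx18 (0.016). The mean over a gene's probe sets gave an endothelial median of 0.11. The probe set of largest interquartile range left 0 lower genes with such a p and put Egfl7 at 0.055. Shares over all genes were not computed for these other probe set choices or for the covariate fits below. Counts of lower genes with each mouse left out also have no such share beside them. Array weights put the endothelial median at 0.18, Bsg at 0.021 and the other mural median at 0.012, and cyclic loess put Bsg at 0.0012. Dp(11)17/+ replicate 2 alone gave medians of 0.10 for transporters, -0.023 for mural genes, -0.020 for growth factor, Tie and Notch signalling and -0.028 for the Wnt programme, and turned Cdh5 (-0.14), Tie1 (-0.10), Esam (-0.067), Sox18 (0.082), Ocln (0.20), Slco1c1 (-0.045), Abcc9 (-0.061), Anpep (-0.15), Acta2 (0.056), Nrp1 (0.14) and Plvap (0.039). The striatal covariate left 3 higher genes with such a p, gave medians of 0.12 over all, -0.016 for growth factor signalling, -0.021 for the Wnt programme and -0.0033 for junction genes, and turned Cdh5 (-0.057), Tie1 (-0.039), Esam (-0.018), Sox18 (0.037), Ocln (0.091), Anpep (-0.16), Acta2 (0.077) and Nrp1 (0.017). The choroid plexus covariate gave 10 higher genes with such a p. The astrocyte covariate, whose means did not overlap between the groups and so cannot be told apart from genotype, left 1. It gave medians of 0.22 endothelial, 0.48 mural and 0.080 for other mural genes. It turned Ramp2 (-0.029), Egfl7 (0.074), Sox18 (0.20), Cldn5 (0.33), Bsg (0.060), Tfrc (0.043), P2ry12 (-0.034) and Fcrls (-0.068). With each mouse left out, 2 to 11 genes had such a p and were higher and 0 to 1 were lower, and the endothelial median was 0.14 to 0.20, the transporter median 0.15 to 0.45, the mural median -0.0067 to 0.27, that of other mural genes -0.046 to 0.027, of growth factor signalling -0.027 to 0.052, of junction genes 0.0099 to 0.13 and of the Wnt programme -0.024 to 0.063. In the same fits Acta2 lay between -0.24 and 0.042, Anpep between -0.083 and 0.40, Bsg between -0.090 and 0.037, Cldn5 between -0.35 and 0.091, Egfl7 between -0.17 and 0.0046, Esam between -0.023 and 0.16, Ocln between -0.31 and 0.034, Ramp2 between -0.12 and 0.28, Sox18 between -0.093 and 0.043 and Tie1 between -0.065 and 0.099. No paired analysis was possible because the mice of both genotypes carry no shared numbers. Many probe sets of defining markers are dim, and 3 mice in each group limit every interval.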

Other observations

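Cells that touch the vessel wall also differed between the mice, and none of these genes passed limma adjusted over all probe sets. Microglial markers were higher in 13 of 13 measured genes, where 41.7% of all genes were higher. Their list means were 6.86 to 7.25 in Dp(11)17/+ mice and 6.79 to 6.99 in +/+ mice. P2ry12, the receptor by which microglia sense nucleotides, had a log2 fold change of 0.35, Csf1r, the receptor that keeps them alive, of 0.24, and Fcrls of 0.21. By mouse the microglial list mean stood at 0.38, 0.08 and -0.01 from the +/+ mean in Dp(11)17/+ replicates 1, 2 and 3. In +/+ replicates 1, 2 and 3 it stood at -0.04, 0.12 and -0.08. The groups overlapped, and Dp(11)17/+ replicate 1, the mouse with high Xist, stood highest. Among astrocyte genes Gjb6, a connexin of the gap junctions between astrocytes, had a log2 fold change of 0.34 and Fgfr3 of 0.28, while Gjb2, a connexin that meningeal cells also make, had one of -0.28.

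Meningeal fibroblast markers were lower in 12 of 14 measured genes and higher in 14.3%, where 41.7% of all genes were higher. Their list means were 5.52 to 5.69 in Dp(11)17/+ mice and 5.76 to 5.98 in +/+ mice, so the groups did not overlap. Igf2 had a log2 fold change of -0.38, Aldh1a2, which makes retinoic acid in meninges, of -0.65, and Slc6a13, a GABA transporter, of -0.55.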
